A study of Mus musculus with 2 samples.

Results

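A set of 10 genes that are best known from the pancreas were followed in the intestine of 2 newborn mice. They are 6 genes for digestive proteins made by the acinar cells of the pancreas (Clps, Ctrb1, Cela2a, Cela1, Cpa1 and Rnase1) and 4 for hormones made by its islets (Ins1, Ins2, Iapp and Ppy). They were chosen by symbol, and all 10 were found among the 43346 Ensembl genes of the deposited tables. Both mice were of the B6NCrl strain, 0 days old and of uncollected sex, and the labels place them as pup 1 and pup 2 of the same pregnant female. No genetic change or treatment is given. Each pup gave 1 total RNA library of the intestine, made from 10 ng of RNA longer than 200 nt, so the data hold 1 group of 2 biological replicates. The sources used here do not say which lengths of the intestine were taken or how the organs attached to it were removed.

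Acinar cells store digestive enzymes as granules, many of them as inactive precursors (zymogens), and release them through the pancreatic duct into the duodenum. There enteropeptidase, an enzyme of the duodenal brush border, activates trypsinogen, and trypsin then activates the other zymogens. Islet cells are endocrine and secrete into the blood: beta cells release insulin together with amylin, and the pancreatic polypeptide cells release the peptide encoded by Ppy. The gut epithelium has endocrine cells of its own, which share many transcription factors and granule proteins with islets but are known for other hormones, such as secretin and peptide YY. Mice have a pair of insulin genes, Ins1 and Ins2, on different chromosomes.

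Expected counts summed over genes to 44568098 for pup 1 and 34797495 for pup 2. Levels are given in TPM, the deposited abundance per transcript length, and as mean ± SD over the pups (n = 2). P-values are left out, because 2 values allow an exact test no p under 0.5. Differences between the pups are given as the ratio of counts per effective library size (TMM), with an exact (Clopper-Pearson) 95% interval. That interval, like those of ratios between genes, covers the counting error of reads only. Reads that carry no molecular identifier can be copies of 1 molecule, so the intervals can be too narrow for the counting of molecules. The pups are littermates, so the SD measures the spread between 2 animals of 1 litter, each with 1 library, and not that between litters. In bulk tissue, fewer cells of a type and less RNA per cell cannot be told apart. The tissue carried its defining markers: all 10 enterocyte genes listed reached 1 TPM in both pups, led by the apolipoproteins Apoa4 and Apoa1 and the fatty acid binding protein Fabp2, and their summed level was 82868 TPM in pup 1 and 77233 TPM in pup 2.

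The 2 insulin genes are close copies, so their coding sequences are shown first, because the counts below rest on telling them apart. Each line gives the first 150 coding bases, from the start codon, with the 14 bases that differ between the genes in capitals (GENCODE M21 transcripts).
Ins1: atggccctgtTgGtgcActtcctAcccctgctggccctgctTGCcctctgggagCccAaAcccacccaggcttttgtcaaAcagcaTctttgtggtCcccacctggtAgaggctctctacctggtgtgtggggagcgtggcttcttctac
Ins2: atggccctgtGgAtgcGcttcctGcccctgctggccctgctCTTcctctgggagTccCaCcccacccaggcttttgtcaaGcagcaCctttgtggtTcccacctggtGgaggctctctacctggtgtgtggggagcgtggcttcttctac
Over the 324 aligned coding bases the genes were identical at 300 (92.6%), with 6 further bases in Ins2 alone. The longest run shared by the whole transcripts was 56 bases. The deposited posterior standard deviation of the count, which grows when reads cannot be assigned to 1 gene, was 0 for both genes in both pups. It was 0 for 9 of the 10 genes, and 1.47 and 1.57 reads for Cela2a.

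Promoter windows show what else the genes share. RefSeq windows on GRCm38, from 250 bases before to 50 after the annotated start, were matched for 8 of the 10 genes, Clps and Ins2 being without an entry. An E-box (CANNTG) followed after 4 bases by a TC-box (TTTCCC), searched on both strands, is the form of site known for the acinar factor PTF1, a complex of Ptf1a and Rbpjl or its relative. The motif was chosen after the windows had been read. It was present in 31 of 32817 mouse windows (0.0945%), among them those of Ctrb1 and Cela1, 2 of the 5 acinar windows. It was in 1 of 18 windows of other pancreatic enzyme genes, that of Prss1, and in none of the 3 islet windows. The 250 bases before the start of both genes are given with the fixed letters of the motif in capitals.
Ctrb1, chr8:111691011-111691260, minus strand: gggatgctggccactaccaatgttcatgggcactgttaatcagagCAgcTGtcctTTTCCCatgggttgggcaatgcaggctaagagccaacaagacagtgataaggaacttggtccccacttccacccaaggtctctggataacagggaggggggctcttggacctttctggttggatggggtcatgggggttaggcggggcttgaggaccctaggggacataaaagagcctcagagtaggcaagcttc
Cela1, chr15:100687921-100688170, minus strand: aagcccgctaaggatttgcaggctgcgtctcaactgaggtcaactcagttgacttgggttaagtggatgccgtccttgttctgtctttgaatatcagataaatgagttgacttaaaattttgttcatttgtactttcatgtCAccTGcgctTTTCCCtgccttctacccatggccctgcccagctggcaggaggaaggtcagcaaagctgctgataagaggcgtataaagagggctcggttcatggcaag
The motif began 205 bases before the start of Ctrb1 and 109 bases before that of Cela1. The E-box CCATCTG, known from insulin promoters and also chosen after reading the windows, was in 1742 of the 32817 windows (5.31%) on either strand. It was in 2 of the 3 islet windows, those of Iapp and Ins1, and in none of the 5 acinar ones. It began 112 bases before the start of Iapp, and 85 bases before and 41 after that of Ins1. The 250 bases before both starts follow, with that E-box in capitals, to set beside the acinar windows.
Iapp, chr6:142298175-142298424, plus strand: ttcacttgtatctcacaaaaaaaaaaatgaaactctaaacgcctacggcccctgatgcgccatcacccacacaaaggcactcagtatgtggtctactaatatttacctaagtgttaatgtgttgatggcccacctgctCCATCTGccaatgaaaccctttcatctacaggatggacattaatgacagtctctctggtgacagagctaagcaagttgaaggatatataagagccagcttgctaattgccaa
Ins1, chr19:52264047-52264296, plus strand: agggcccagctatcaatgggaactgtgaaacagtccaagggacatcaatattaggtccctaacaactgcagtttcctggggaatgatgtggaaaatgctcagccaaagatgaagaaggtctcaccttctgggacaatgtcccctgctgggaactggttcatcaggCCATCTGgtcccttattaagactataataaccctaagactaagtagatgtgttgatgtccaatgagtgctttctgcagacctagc
A match of letters is a description of the window and not of a factor bound there.

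Each of the 10 genes reached 1 TPM in both pups, a level that 59.1% of the 21461 nuclear protein-coding genes reached. The lowest, Ppy, lay on the threshold in pup 2. By their medians, the 6 acinar members stood above the 4 islet members. That order depends on the members chosen. Over the 21 other acinar enzyme genes listed below, the median was 2.87 TPM in pup 1 and 4.3 TPM in pup 2. Over the islet genes it was 5.91 and 3.21 TPM, higher than those other enzymes in pup 1 and lower in pup 2. The median of log2(TPM + 0.1) over the acinar genes exceeded that over the islet genes by 1.92 in pup 1 (3.79-fold) and by 3.25 in pup 2 (9.53-fold), or 2.59 ± 0.94 (SD, n = 2). Of the 24 pairs of an acinar with an islet gene, the acinar gene was higher in 18 in pup 1 and in 22 in pup 2. Summed over members, acinar genes came to 219 TPM in pup 1 and 298 TPM in pup 2, and islet genes to 45.6 and 21.9 TPM.

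**Figure D1:**
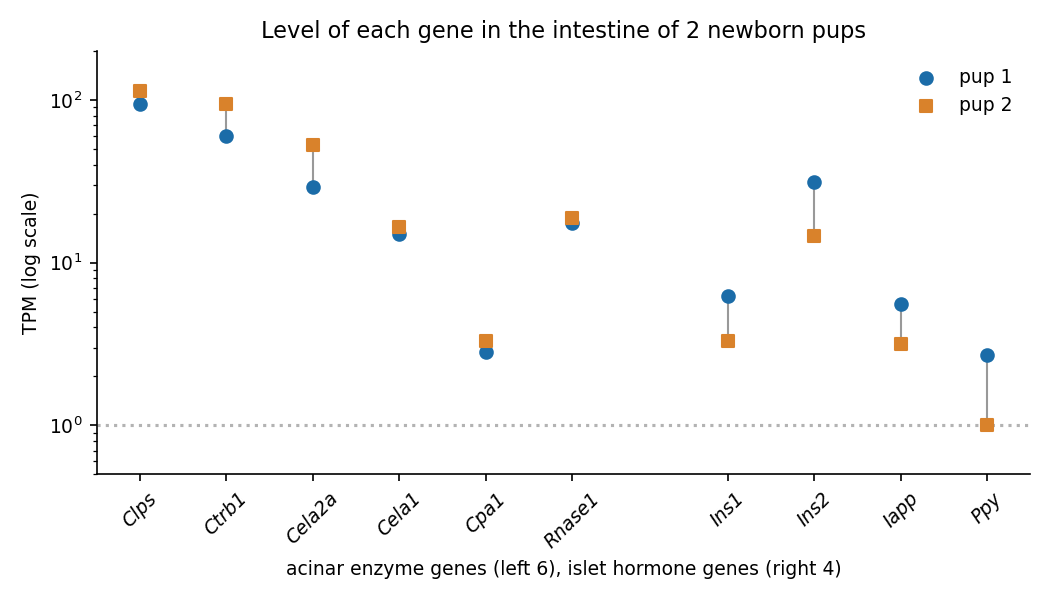
Level of each of the 10 genes in TPM (log axis) in pup 1 (circles) and pup 2 (squares), with a grey line between the pups and a dotted line at 1 TPM. The 6 acinar genes lie higher in pup 2, and the 4 islet genes lie higher in pup 1, with Ins2 at 31.04 TPM in pup 1 and 14.5 TPM in pup 2.

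Colipase led the acinar genes. Clps (ENSMUSG00000024225.4, chromosome 17, 28558149 to 28560766) encodes the cofactor that anchors pancreatic lipase to fat droplets in the presence of bile salts. It stood at 94.38 TPM in pup 1 and 113.26 TPM in pup 2, or 103.8 ± 13.4 TPM, rank 1227 among the nuclear protein-coding genes. Its full-length transcript held 99.08% and 98.67% of its abundance. The lipase itself, Pnlip, had no read in pup 1 and 3 in pup 2. Per transcript length, Clps was 1568-fold above Pnlip in pup 1 when Pnlip is set to the floor of 3 counts in that library, with a lower 95% limit of 1274-fold, and 1442-fold (95% interval 492 to 6999.96) in pup 2. Pnliprp2, a lipase-related protein known for its role in digesting milk fat in sucklings, was at 4.15 and 4.30 TPM, and Clps was 22.7 times that level in pup 1 and 26.3 times in pup 2. Pnliprp1, a relative with little known lipase activity, was at 11.76 and 17.12 TPM.

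Chymotrypsinogen came next. Ctrb1 (ENSMUSG00000031957.5, chromosome 8, 111686519 to 111691010), the precursor of the protease chymotrypsin B, was at 60.31 TPM in pup 1 and 93.72 TPM in pup 2 (77.0 ± 23.6 TPM). Clps and Ctrb1 together made up 70.5% of the summed level of the acinar genes in pup 1 and 69.4% in pup 2. In TPM, Clps stood above Ctrb1 by log2 0.46 ± 0.26, but without length normalisation the order turned (log2 -0.35), since the Clps transcript has 550 bases and that of Ctrb1 887. Ctrb1 exceeded the trypsinogen Prss1 by 5.55-fold (4.88 to 6.32) in pup 1 and 8.52-fold (7.40 to 9.85) in pup 2. The related chymotrypsin-like genes were low, with Ctrl at 0.49 and 1.10 TPM and no read assigned to Ctrc in either pup. For a gene without shared reads, 0 reads allow up to 3 (0.0673 and 0.0862 CPM, counts scaled to library size). The count of Ctrc also depends on how reads shared with Cela2a were divided, as given below.

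The elastases differed from each other. Cela2a (ENSMUSG00000058579.5, chromosome 4, 141814962 to 141826160) was at 29.14 TPM in pup 1 and 52.86 TPM in pup 2 (41.0 ± 16.8 TPM). Cela1 (ENSMUSG00000023031.7, chromosome 15, 100674421 to 100687921) was at 15.07 and 16.63 TPM (15.9 ± 1.10 TPM). In TPM, Cela2a was 1.93 times Cela1 in pup 1 and 3.18 times in pup 2. The Cela2a value depends on how its reads were divided among transcripts. The coding transcript of 8 exons and 1070 bases held 75.1% of the gene in pup 1 and 53.3% in pup 2, and most of the rest went to a retained-intron transcript of 468 bases. The ratio of pup 2 to pup 1 was 1.81 in TPM and 1.46 from counts. Cela2a also overlaps Ctrc on the same strand and Casp9 on the other in GENCODE M21. The counts were made with M4, so these positions alone do not show how reads of the shared stretches were divided. The posterior standard deviation of the Cela2a count was small, 1.47 on 861 reads in pup 1 and 1.57 on 1005 in pup 2. Ctrc had the same posterior standard deviations at an expected count of 0 in both pups. Reads that fitted both genes were thus counted for Cela2a. Of the third elastase pair, Cela3b was at 7.30 and 10.93 TPM and Cela3a was assigned no read in either pup. Both had a posterior standard deviation of 0.32 and 0.3 reads, so the count of Cela3a also depends on how shared reads were divided.

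Carboxypeptidase and ribonuclease completed the group. Cpa1 (ENSMUSG00000054446.8, chromosome 6, 30639218 to 30645363), which trims amino acids from the carboxyl end of peptides, was the lowest acinar gene at 2.81 and 3.28 TPM (3.05 ± 0.33 TPM). Cpb1, the carboxypeptidase for basic residues, stood at 2.87 and 3.94 TPM. Rnase1 (ENSMUSG00000035896.4, chromosome 14, 51144998 to 51146785), the pancreatic-type secreted ribonuclease, was at 17.62 and 18.67 TPM (18.1 ± 0.742 TPM). Rnase1 stood above Cela1 by 1.17-fold (1.04 to 1.32) in pup 1, and in pup 2 the interval spanned 1 (1.12, 0.984 to 1.28).

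Insulin 2 was the main islet gene. Ins2 (ENSMUSG00000000215.6, main transcript on chromosome 7, 142678661 to 142679717, with 3 exons) was at 31.04 TPM in pup 1 and 14.5 TPM in pup 2 (22.8 ± 11.7 TPM). It ranked 3 of the 10 genes in pup 1, level with Cela2a within counting error (ratio 1.07, 0.944 to 1.20), and 6 in pup 2, where its interval with Cela1 also spanned 1. That transcript, of 455 bases, held 81.3% and 71.4% of the gene, and 1 that starts far upstream held 0.50% in pup 1 and 0% in pup 2. Ins1 (ENSMUSG00000035804.4, chromosome 19, 52264297 to 52265476) was at 6.22 and 3.28 TPM (4.75 ± 2.08 TPM). Ins2 exceeded Ins1 by 4.99-fold (4.21 to 5.94) in pup 1 and 4.41-fold (3.35 to 5.85) in pup 2, intervals that overlap. Annotated length enters these ratios: the Ins1 transcript is 1016 bases long for 324 coding bases, that of Ins2 455 for 330. In reads, Ins2 exceeded Ins1 by 1.97-fold and 1.77-fold.

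Amylin and pancreatic polypeptide were lower. Iapp (ENSMUSG00000041681.2, chromosome 6, 142298423 to 142303961), which encodes the peptide amylin stored with insulin, was at 5.60 TPM in pup 1 and 3.14 TPM in pup 2 (4.37 ± 1.74 TPM). Ins2 was 5.54 times as high in pup 1 and 4.62 times in pup 2. Iapp and Ins1 did not differ beyond counting error in either pup, with Ins1 over Iapp at 1.11 (0.895 to 1.38) in pup 1 and 1.04 (0.745 to 1.47) in pup 2. The gene overlaps Slco1a5 on the other strand, and none of the sources used says whether the counting used strand. Ppy (ENSMUSG00000017316.9, chromosome 11, 102099930 to 102101319) was at 2.72 and 1.00 TPM, from 39 and 11 reads. Its neighbour Pyy, a gut hormone gene 5357 bases away that encodes peptide YY, was at 150.37 and 141.57 TPM. Pyy was 55.3 times Ppy in pup 1 and 142 times in pup 2. Ppy was the lowest of the 10 genes in each pup, level with Cpa1 within counting error in pup 1 (Cpa1 over Ppy 1.03, 0.722 to 1.51).

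By their median ratios, the 2 groups lay on opposite sides of 1 between the littermates. Of the 6 acinar genes, 3 had an interval wholly above 1, as given below. Each of the 4 islet genes was lower in pup 2, and its interval lay wholly under 1. Across the 19088 genes with a summed count of 10 or more, 16.6% had such an interval on the side of pup 1. Pup 1 exceeded pup 2 by 2.20-fold (1.82 to 2.68) for Ins2 on 404 and 147 reads, and by 1.98-fold (1.53 to 2.59) for Ins1 on 205 and 83 reads. It did so by 1.87-fold (1.38 to 2.54) for Iapp on 149 and 64 reads, and by 2.84-fold (1.43 to 6.15) for Ppy. Ins2 and Ins1 passed the stricter rule, an interval wholly past 1.5-fold, which 0.733% of all genes passed on the side of pup 1. Scaled to the total count, Ins1 did not pass that rule (1.93-fold, 1.49 to 2.52). Summed over the 4 genes, 797 reads in pup 1 and 305 in pup 2 gave 2.10-fold (1.83 to 2.40).

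Of the 6 acinar genes, each ratio of pup 2 to pup 1 was above 1, as were 48.5% of all genes tested. The interval lay wholly above 1 for 3 of them, against 13% of all genes: Ctrb1 at 1.49 (1.39 to 1.58), Cela2a at 1.46 (1.33 to 1.60) and Clps at 1.15 (1.06 to 1.23). It spanned 1 for Cpa1 (1.11, 0.876 to 1.42), Cela1 (1.05, 0.930 to 1.20) and Rnase1 (1.01, 0.892 to 1.15). No acinar gene passed the 1.5-fold rule, which 0.749% of all genes passed on the side of pup 2. The median ratio was 1.13 over the acinar genes and 0.479 over the islet genes, beside 0.996 over all genes tested. With 1 library per pup these are differences between 2 libraries.

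**Figure D2:**
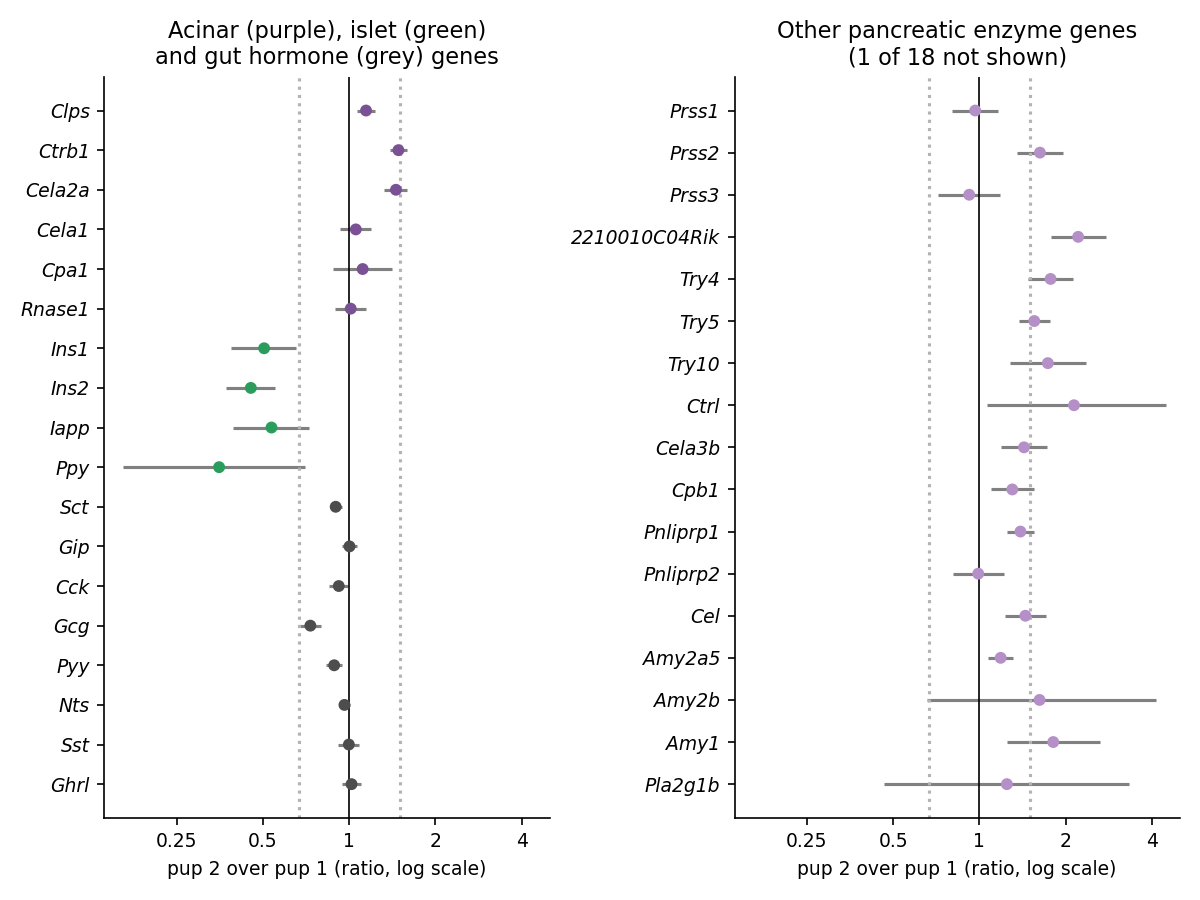
Ratio of pup 2 to pup 1 (log axis) with exact 95% intervals for counting error, for the 10 genes and 8 gut hormone genes (left) and for other pancreatic enzyme genes with a summed count of 10 or more (right, 1 of 18 not shown). Dotted lines mark 1.5-fold in each direction. The islet genes lie at 0.352 to 0.536, the acinar genes at 1.01 to 1.49 and the gut hormones at 0.732 to 1.02.

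Stomach genes and posterior HOX genes, which mark position along the gut, also differed between the pups. Of 14 stomach genes, 6 reached 1 TPM in both pups, and the list came to 192 TPM in pup 1 and 537 TPM in pup 2. Against 0.749% of all genes, 9 of the 11 with a summed count of 10 or more passed the 1.5-fold rule on the side of pup 2. They were the gastrokines Gkn1, Gkn2 and Gkn3, the trefoil factors Tff1 and Tff2, Pgc, Muc5ac, Gast and Barx1, with Gkn2 at 7.55 (6.34 to 9.04) and Tff1 at 4.23 (3.89 to 4.61). The parietal cell gene Atp4b had no read in either pup. Atp4a, also on the list, went the other way at 0.367 (0.162 to 0.759) on 34 and 10 reads. It was the only stomach gene with an interval wholly under 1, and it did not pass the 1.5-fold rule. Of the 7 posterior HOX genes with a summed count of 10 or more, 5 passed that rule on the side of pup 1, against 0.733% of all genes. The 5 were Hoxa10, Hoxa11, Hoxd9, Hoxd10 and Hoxb9. The posterior HOX list came to 11.5 TPM in pup 1 and 1.56 TPM in pup 2. The liver list came to 575 and 572 TPM, most of it Ttr and Cps1, with Alb at 0.79 and 0.86 TPM, and Ahsg passed the rule on the side of pup 1. The part of these differences in the values of the enzyme and hormone genes was not tested, nor was which cells held their RNA.

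**Figure D3:**
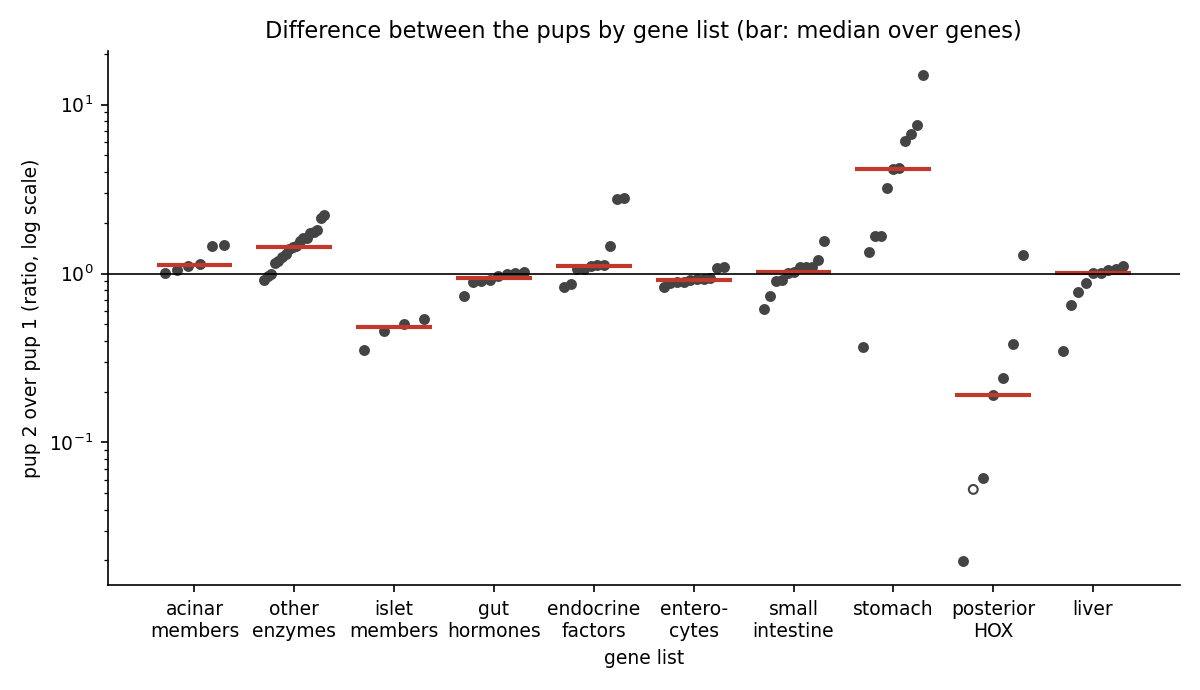
Ratio of pup 2 to pup 1 (log axis) of each gene with a summed count of 10 or more in 10 lists, with the median as a bar. The open circle is Hoxa11, drawn at the bound given by 3 counts since it had no read in pup 2. The medians are 1.13 for acinar genes, 1.44 for other enzymes, 0.479 for islet genes, 0.941 for gut hormones, 4.16 for stomach genes and 0.192 for posterior HOX genes.

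Other enzyme genes of the acinar cell were present at lower levels. Of 21 listed, 14 reached 1 TPM in both pups, beside 59.1% of the nuclear protein-coding genes. Their summed level, over all 21, was 106 TPM in pup 1 and 153 TPM in pup 2. All 7 trypsinogen genes were among the 14, led by Try5 at 18.66 and 30.34 TPM. The amylase Amy2a5 was at 13.97 and 17.21 TPM, in a family whose near-identical copies share reads, with a posterior standard deviation of 487 and 416 reads. Of the 18 with a summed count of 10 or more, 15 had a ratio of pup 2 to pup 1 above 1, against 48.5% of all genes tested. Against 13% of all genes, 12 of the 18 had an interval wholly above 1. The median ratio over the 18 was 1.44. One passed the 1.5-fold rule, the trypsinogen 2210010C04Rik at 2.21 (1.78 to 2.76). Summed over the 7 trypsinogens, pup 2 stood at 1.49 (1.39 to 1.59) of pup 1.

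Acinar regulators were mostly low or without reads. What level of them would go with the enzyme levels above was not tested. Of the 4 acinar transcription factors, Ptf1a had no read in either pup. Rbpjl was at 0.12 and 0.09 TPM and Bhlha15, which organises the secretory apparatus, at 0.12 and 0.11 TPM. Nr5a2, which the intestinal epithelium also uses, was at 3.16 and 3.86 TPM. Among 9 granule and other secreted products, 5 reached 1 TPM in both pups, led by the lectin Reg1 (184.0 and 225.28 TPM), then the kallikrein Klk1 (31.39 and 20.32 TPM) and the granule protein Sycn (13.6 and 18.7 TPM). Reg2 had no read in either pup and Gp2, the main protein of the zymogen granule membrane, was at 0.13 and 0.27 TPM. Between the pups these products were mixed. Of the 7 with a summed count of 10 or more, 2 had an interval of pup 2 over pup 1 wholly above 1, Reg1 (1.17) and Sycn (1.31). For 2 it lay wholly under 1, Klk1 (0.619, 0.550 to 0.695) and Dnase1 (0.772, 0.637 to 0.932). The shares of all genes were 13% and 16.6%. On the side of the gut, the enteropeptidase gene Tmprss15 was at 3.82 and 4.41 TPM. The trypsin inhibitor Spink1 was at 3843 and 4118 TPM.

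Most beta cell genes were low or without reads, and gut hormone genes were abundant. What level of the beta cell genes would go with the insulin levels above was not tested. Mafa, a regulator of insulin genes, had no read in either pup. Nkx6-1 was at 0.03 and 0.04 TPM, G6pc2 at 0.07 and 0.02 TPM, and the zinc transporter Slc30a8, which loads insulin granules, at 0.04 TPM in pup 1 and without a read in pup 2. Of 12 beta cell genes, 3 reached 1 TPM in both pups: Slc2a2, Pdx1 and Pcsk1, each of which the intestine also expresses. Pdx1, a factor of pancreas and duodenum, was at 2.84 and 4.00 TPM, and the glucose transporter Slc2a2 at 70.98 and 72.35 TPM. The beta cell list as a whole came to 77.2 and 79.8 TPM.

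Granule processing genes were at similar levels in the pups, led by Cpe, Pam and Chgb, with Cpe at 121.74 and 131.0 TPM. Of these 10 genes, 8 reached 1 TPM in both pups, and none passed the 1.5-fold rule. The endocrine transcription factors shared with islets had 5 of 10 at that level. Among them, Neurod1 was at 1.71 and 1.92 TPM and Isl1 at 1.13 and 1.88 TPM. Each of the 8 gut hormone genes reached 1 TPM, led by Sct (secretin, 294.33 and 276.7 TPM), Pyy and Nts (neurotensin, 122.98 and 123.87 TPM), and the islet genes summed to 4.72% of their level in pup 1 and 2.33% in pup 2. None of the 8 passed the 1.5-fold rule, the lowest ratio of pup 2 to pup 1 being that of Gcg, at 0.732 (0.669 to 0.801). Gcg was listed as an islet hormone too, as were Pyy, Sst and Ghrl. Pyy was at 0.887 (0.832 to 0.944). The intervals of Sst (0.997, 0.917 to 1.08) and Ghrl (1.02, 0.945 to 1.10) spanned 1.

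**Figure D4:**
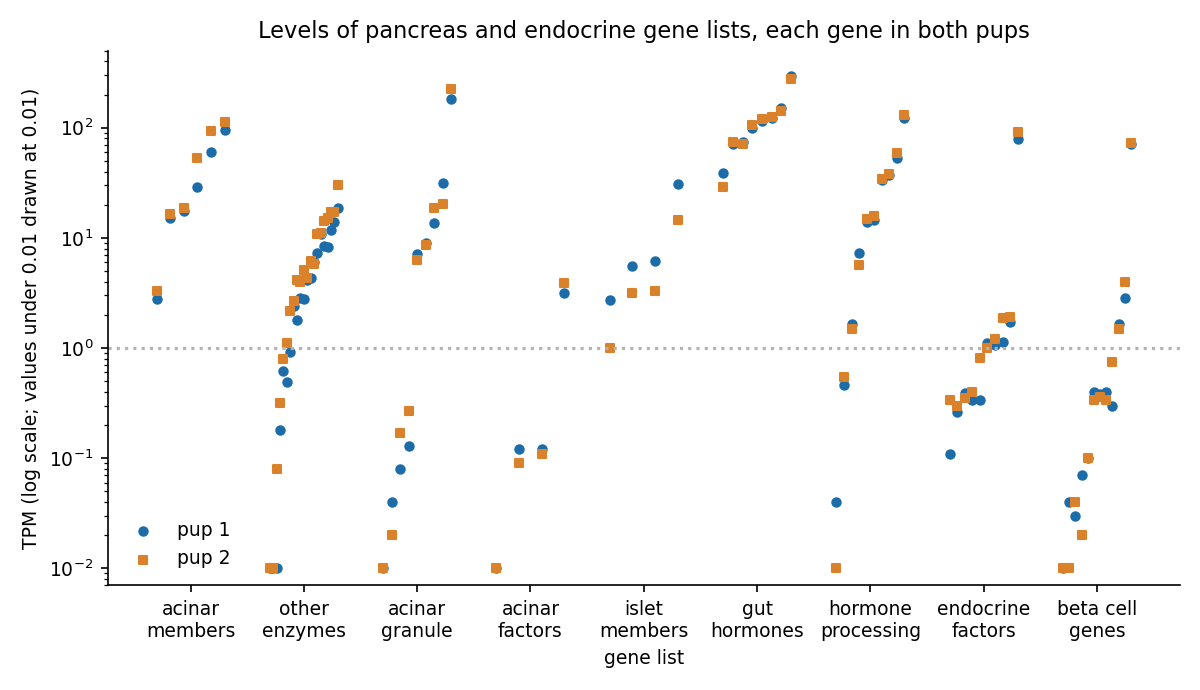
Level in TPM (log axis) of every gene of 9 lists in pup 1 (circles) and pup 2 (squares), with a dotted line at 1 TPM and values under 0.01 drawn at 0.01. All 6 acinar and 4 islet genes lie at or above 1 TPM in both pups. Of the acinar factors 1 of 4 does so, and of the beta cell genes 3 of 12.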

How the data were processed

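Total RNA of the intestine of 2 newborn littermates was measured, with 1 library each. Per the file headers, the authors deposited expected counts (estimated reads, with shared reads divided), posterior mean counts with their posterior standard deviation, TPM and FPKM for each gene, and for each transcript its share of the gene in percent. The build was mm10 with GENCODE annotation M4, as a text file that the authors deposited states. The aligner, the quantifier and the use of strand: not given in the sources used here. Both tables list 69691 features, of which 26345 spike-in and tRNA features were left out.

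Symbols were matched by gene ID to GENCODE M21 on GRCm38, the same assembly, for 42462 of 43346 genes (98.0%), which also gave all positions (1-based). Expected counts were rounded and scaled with TMM in edgeR 4.0.16 (R 4.3.3). A gene was called apart when its exact 95% interval lay wholly past 1.5-fold at a summed count of 10 or more. Contrasts within a pup used log2(TPM + 0.1). Named are the members, the genes of fixed pairs, the 3 highest of each list, and genes past the 1.5-fold rule; further genes were named after their values were seen, and some listed genes are not reported here. Members and lists were chosen with earlier results of these data known. Pandas 2.3.3, SciPy 1.17.1, Biopython 1.88 and matplotlib 3.10.9 were used.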

Additional observations from a re-analysis of the deposited data

How the results depend on the processing

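The excess of acinar over islet genes (log2 2.59) kept its direction under each alternative run, from 2.29 with means over members to 3.14 without Rnase1 while both pups were kept. It was 1.92 to 3.25 with either pup left out. Each of these runs used the 10 genes or fewer, and none used the other acinar enzyme genes. All 10 genes reached 1 TPM in both pups, while 9 did at a threshold of 2 TPM or with FPKM. Leaving out either pup also gave 10, which follows from the first count and is no further check. Of the 10, 2 lay past 1.5-fold between the pups. That count was 1 with scaling to the total count, 0 with an interval wholly past 2-fold and 7 with an interval wholly past 1. It stayed at 2 with DESeq2 size factors, with the scaling of the deposited TPM, with posterior mean counts, without a minimum count and with a minimum of 50. Among single genes and pairs, 110 values moved by no more than their spread, 19 by more, and the order of Clps and Ctrb1 turned without length normalisation (log2 -0.35). The 110 include the runs with 1 pup left out, which could not count as moved. With 2 pups, leaving 1 out always shifts the mean by less than the SD. No paired analysis was possible because both libraries form 1 group. Depth limits Ppy most, with 11 reads in pup 2.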

Other observations

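Further lists bear on which tissues were in the samples. Of 7 pancreatic duct genes, several of which the gut epithelium also expresses, 6 reached 1 TPM in both pups, led by Krt19 (435.87 and 402.79 TPM), and Onecut1, a factor of the developing pancreas, had 4 reads in pup 1 and none in pup 2. The list summed to 478 TPM in pup 1 and 447 TPM in pup 2. Of 4 spleen genes, none reached 1 TPM in both pups, and Nkx2-5 passed the 1.5-fold rule on the side of pup 2 with 3 reads in pup 1 and 18 in pup 2. All 6 endothelial genes reached 1 TPM in both, at 192 and 202 TPM in sum, as did all 11 of a small intestine list, at 1108 and 1186 TPM in sum. That list holds mostly duodenal genes, such as Slc40a1, Sct and Gip, but also Fgf15 (31.65 and 51.66 TPM), a hormone gene known from the ileum. Among the endocrine factors, Pax4 (12 and 27 reads) had a ratio of pup 2 to pup 1 of 2.81 (1.37 to 6.08), the opposite side from the islet hormones.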
